A study of Homo sapiens with 6 samples.

Results

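The epithelial-mesenchymal switch genes are 10 genes that mark or drive the passage of cells between an epithelial sheet and a mesenchymal, migratory form. They were taken by symbol from the deposited table of 63677 genes, in which each symbol stood on 1 row. They comprise the cadherins CDH1 and CDH2, the adhesion molecule EPCAM, the intermediate filament VIM, the splicing regulator ESRP1, and the transcription factors SNAI1, SNAI2, ZEB1, ZEB2 and TWIST1. All 10 passed the filter on low counts, as did 19434 genes in all, so none was set aside.

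The libraries hold RNA of 2 human embryonic stem cell lines, Royan H6 (called RH6) and Royan H5 (called RH5), in the naive and in the primed state of pluripotency. The naive state had been reached with 2a2iL, after which cells stayed in 2iL medium and were split with trypsin. Primed cells were kept in a bFGF medium, and both states grew on inactivated mouse embryonic fibroblasts (MEF). There were 2 naive RH6 libraries (passage 10), 2 naive RH5 libraries (passage 17), 1 primed RH6 library (passage 20) and 1 primed RH5 library (passage 16). State, medium and, within a line, passage changed together and cannot be told apart. Passage also differed between the lines, so differences between RH6 and RH5 cannot be told apart from those of passage. The labels do not say whether duplicates are separate cultures. The p-values thus hold for these libraries only. For effects within a line, their difference and the naive groups, the spread behind them comes from the naive duplicates and may be technical. Over both lines that spread also takes in how far the difference between states varied by line.

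In an epithelium, E-cadherin and EPCAM hold neighbouring cells together, and epithelial splicing regulators keep many transcripts in their epithelial isoforms. The SNAI, ZEB and TWIST factors bind E-box sequences and can repress CDH1, while N-cadherin and vimentin come up as cells become mesenchymal. Human pluripotent stem cells grow as epithelial colonies and carry much E-cadherin, and gastrulation in the embryo uses the same switch when epiblast cells enter the primitive streak.

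The libraries held 13457979 to 14663982 counts. Of 10 markers of pluripotent stem cells, 10 were at 1 CPM (counts scaled to 1e6 per library after TMM normalization) or more in both primed libraries and 9 in all naive libraries. Their summed level was 5950 to 8090 CPM in naive and 9530 to 10600 CPM in primed libraries. In this bulk RNA, a change in the share of cells of a type and a change in RNA per cell cannot be told apart.

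In naive cells the 3 epithelial genes were lower and the mesenchymal genes VIM and CDH2 higher. Of the 10 genes, 4 rose (CDH2, VIM, SNAI2 and ZEB1), 3 fell (CDH1, EPCAM and ESRP1) and 3 were not called (SNAI1, ZEB2 and TWIST1) over both lines by edgeR's quasi-likelihood test at an adjusted p under 0.05. Over all genes tested, 25.7% were called, 12.1% higher and 13.6% lower. The median log2 fold change of the 10 genes was 0.54, against -0.01 over all genes tested. In 5 of the genes all 4 naive libraries lay above both primed libraries and in 3 they all lay below. Of all genes tested, 44.3% had groups that did not overlap, 21.5% with naive libraries higher and 22.9% with them lower.

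**Figure D1:**
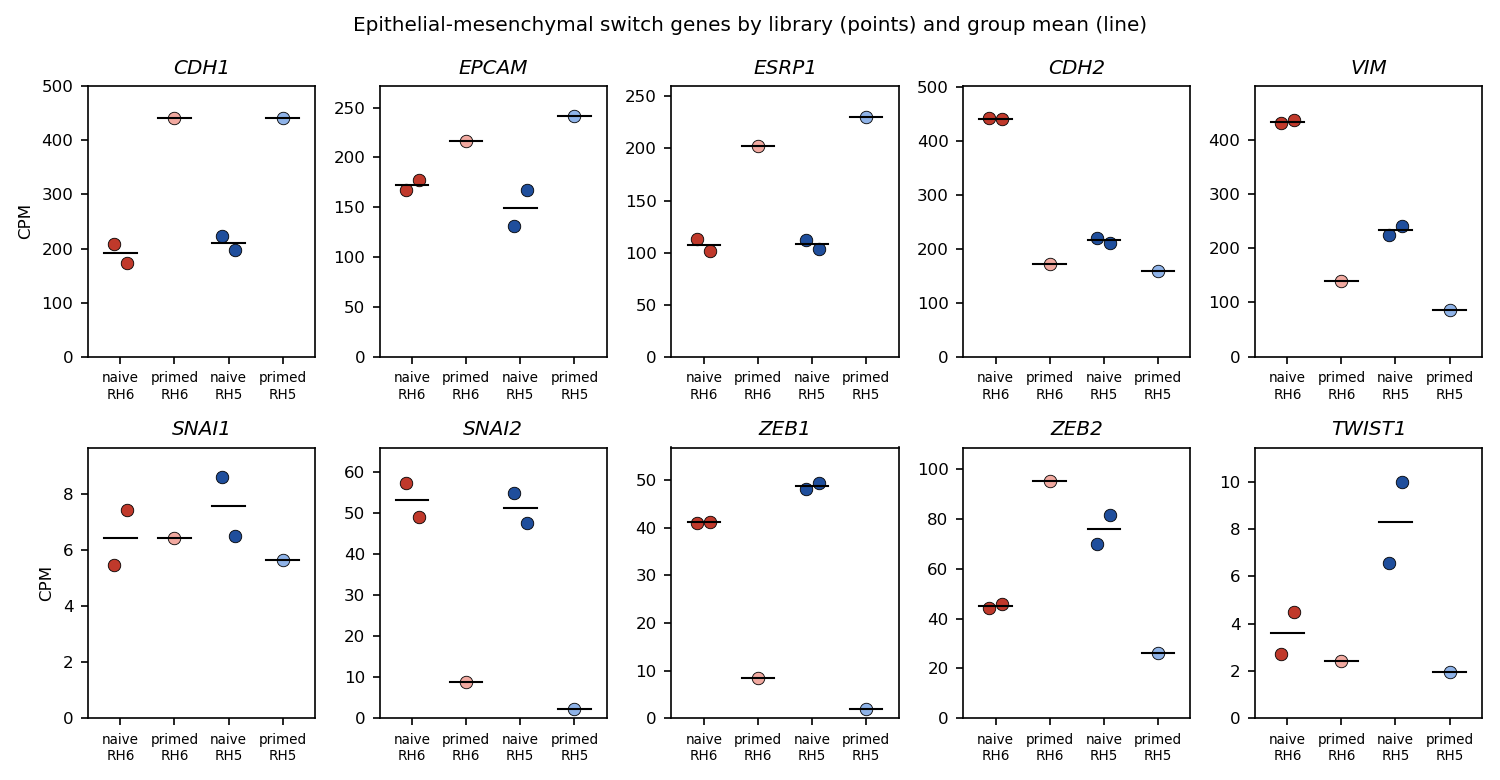
Expression of the 10 switch genes in CPM (vertical axes, linear from 0) in each library. Points are libraries and lines are group means; naive groups have 2 points and primed groups 1. CDH1 and ESRP1 sit near a common level within each state, SNAI2 and ZEB1 are low in both primed libraries, and ZEB2 is highest in primed RH6 and lowest in primed RH5.

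CDH1 (ENSG00000039068) encodes E-cadherin, the adhesion receptor of adherens junctions. It stood at 208 and 174 CPM in naive RH6, 223 and 196 CPM in naive RH5, and 441 CPM in both primed RH6 and primed RH5. All naive libraries lay below both primed ones, and the lines overlapped within the naive state. The naive mean was 200.3 ± 20.7 CPM (SD, n = 4) and the log2 fold change of naive over primed was -1.14 (SE 0.11, adjusted p = 0.000876). By line it was -1.21 ± 0.13 for RH6 and -1.07 ± 0.13 for RH5, and the difference between the lines was -0.13 ± 0.20 (adjusted p = 0.716).

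ESRP1 (ENSG00000104413) encodes an RNA-binding protein that keeps epithelial exons in genes such as FGFR2 and CD44. It stood at 113 and 102 CPM in naive RH6, 112 and 103 CPM in naive RH5, 202 CPM in primed RH6 and 229.9 CPM in primed RH5. The naive libraries of both lines shared 1 narrow range, at a fitted 0.499 of the primed level. On the log2 scale this was -1.003 ± 0.10 (adjusted p = 0.000935), or -0.91 for RH6 and -1.09 for RH5. Across the 6 libraries ESRP1 was the switch gene with the profile nearest to that of CDH1, with a root-mean-square difference of 0.11 in log2 CPM after each was centred on its own mean.

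EPCAM (ENSG00000119888), an epithelial surface glycoprotein and a marker of undifferentiated stem cells, fell less. It stood at 167 and 177 CPM in naive RH6, 131 and 168 CPM in naive RH5, 216 CPM in primed RH6 and 242 CPM in primed RH5. The groups did not overlap, but the naive RH5 duplicates were further apart than the naive RH6 ones. Its log2 fold change was -0.52 ± 0.14 (adjusted p = 0.0343). It was -0.69 ± 0.14 in RH5 (adjusted p = 0.0044), and the value of -0.33 ± 0.15 in RH6 was not called (adjusted p = 0.109). The call over both lines was lost when any 1 naive library was left out, while the fold changed little. It was -0.52 and -0.56 without naive RH6 replicates 1 and 2 (adjusted p = 0.0782 and 0.0719). Leaving out naive RH5 replicate 1 or 2 gave -0.42 or -0.57 (adjusted p = 0.0801 and 0.057). The estimate over both lines was -0.69 without primed RH6 and -0.30 without primed RH5, each being the effect of the remaining line.

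Among the mesenchymal markers, VIM (ENSG00000026025), the intermediate filament of mesenchymal cells, rose in both lines. It stood at 430.3 and 436 CPM in naive RH6, 225 and 240.2 CPM in naive RH5, 140.4 CPM in primed RH6 and 85.6 CPM in primed RH5. Every naive library was above both primed libraries, and RH6 was above RH5 in each state. In log2 units VIM rose by 1.53 ± 0.11 (adjusted p = 0.000219). Line by line, RH6 gave 1.62 ± 0.12 and RH5 gave 1.44 ± 0.12. Naive RH6 exceeded naive RH5 by 0.90 ± 0.09 on the log2 scale (adjusted p = 8.04e-05).

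CDH2 (ENSG00000170558) encodes N-cadherin, the cadherin of mesenchymal and neural cells. It stood at 442 and 440.0 CPM in naive RH6, 220.0 and 211 CPM in naive RH5, 171 CPM in primed RH6 and 158 CPM in primed RH5. Naive RH6 stood apart from the other 4 libraries, and naive RH5 lay only a little above the primed ones. CDH2 rose by 0.88 ± 0.20 (adjusted p = 0.0205). RH6 gave 1.36 ± 0.12 and RH5 gave 0.45 ± 0.11. The rise was larger in RH6 by 0.92 ± 0.16 (adjusted p = 0.00424). The estimate was 0.45 without primed RH6 and 1.39 without primed RH5, each being the effect of the other line. Without naive RH6 replicate 1 or 2 the fold over both lines stayed at 0.83, and the call was lost (adjusted p = 0.0533 and 0.0656).

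The relation between cadherins within a library does not depend on its scaling. Counts of CDH2 per count of CDH1 were 2.12 and 2.53 in naive RH6, 0.988 and 1.08 in naive RH5, 0.388 in primed RH6 and 0.359 in primed RH5. The primed libraries of both lines had nearly the same ratio, and the naive libraries differed by line. The mean log2 ratio was 2.05 higher in naive than in primed libraries, 2.58 in RH6 and 1.52 in RH5. Counts of VIM per count of EPCAM were 1.43 to 2.58 in the naive libraries, 0.649 in primed RH6 and 0.355 in primed RH5. Counts of VIM per count of CDH1 were 1.01 to 2.51, 0.318 and 0.194. In all 3 ratios the groups did not overlap. This was fixed by the members themselves, since CDH2 and VIM lay higher and CDH1 and EPCAM lower in all naive libraries. It adds no support beyond theirs. For each of the 4 ratios computed, that of ZEB2 to ZEB1 below included, the exact two-sided permutation test gave p = 0.0667, raw and adjusted, which is the smallest that 4 against 2 libraries allow.

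**Figure D2:**
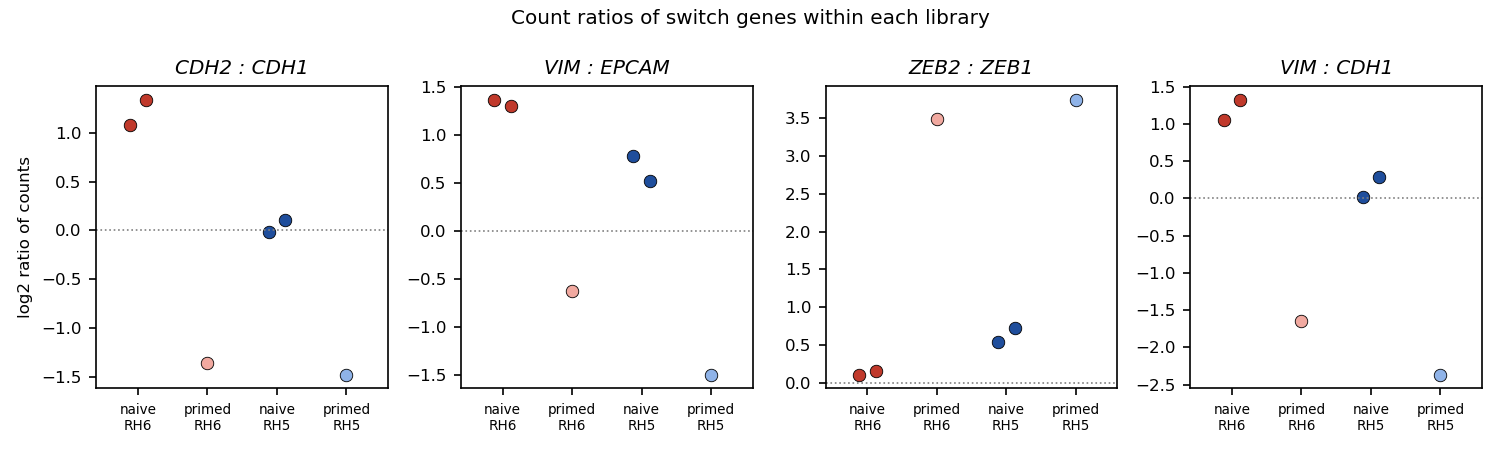
Log2 ratio of the counts of pairs of switch genes in each library (vertical axis; dotted line at equal counts), by line and state. The ratio of CDH2 to CDH1 is near -1.4 in both primed libraries and above 1 in naive RH6, and the ratio of ZEB2 to ZEB1 is above 3 in both primed libraries and under 1 in all naive libraries.

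The transcription factors split into a pair that rose steeply in both lines, 1 gene that went opposite ways in the lines, and a pair with low counts. SNAI2 (ENSG00000019549), or SLUG, a zinc finger repressor of the snail family used by neural crest and mesoderm, rose. It stood at 57.3 and 49.0 CPM in naive RH6, 54.9 and 47.5 CPM in naive RH5, 8.92 CPM in primed RH6 and 2.17 CPM in primed RH5. The naive libraries were alike in both lines, at 52.2 ± 4.66 CPM (SD, n = 4), and the primed libraries were low and unequal. In log2 units SNAI2 rose by 3.34 ± 0.43 (adjusted p = 0.00217). RH6 gave 2.57 ± 0.18 and RH5 gave 4.55 ± 0.23.

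ZEB1 (ENSG00000148516), a zinc finger and homeobox repressor of CDH1, followed nearly the same course. It stood at 41.1 and 41.3 CPM in naive RH6, 48.1 and 49.3 CPM in naive RH5, 8.52 CPM in primed RH6 and 1.96 CPM in primed RH5. The primed RH5 value rested on 27 counts and that of primed RH6 on 127. ZEB1 rose by 3.18 ± 0.49 (adjusted p = 0.00441). RH6 gave 2.27 ± 0.16 and RH5 gave 4.63 ± 0.20. The centred profiles of SNAI2 and ZEB1 differed by a root mean square of 0.16 in log2 CPM, which as a description over 6 libraries is much less than the 1.45 between ZEB1 and its paralogue ZEB2.

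The rises of SNAI2 and ZEB1 were larger in RH5 than in RH6. The effect in RH6 minus that in RH5 was -1.98 ± 0.31 for SNAI2 (adjusted p = 0.00271) and -2.36 ± 0.27 for ZEB1 (adjusted p = 0.000418). Between the naive cultures neither gene differed past the threshold, with 0.05 ± 0.12 for SNAI2 (adjusted p = 0.789) and -0.24 ± 0.11 for ZEB1 (adjusted p = 0.121), RH6 minus RH5. The primed RH6 library held 4.11 times the CPM of primed RH5 for SNAI2 and 4.36 times for ZEB1. Over both lines SNAI2 stood at 4.56 without primed RH6 and 2.60 without primed RH5, and ZEB1 at 4.64 and 2.30, each being the effect of the remaining line.

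ZEB2 (ENSG00000169554), a repressor with the same domains as ZEB1, fell in RH6 and rose in RH5. It stood at 44.2 and 45.9 CPM in naive RH6, 70.0 and 81.7 CPM in naive RH5, 95.3 CPM in primed RH6 and 26.2 CPM in primed RH5. The primed libraries were the highest and the lowest of all 6, with the naive ones between them. RH6 gave -1.08 ± 0.13 (adjusted p = 0.000125). RH5 gave 1.53 ± 0.15 (adjusted p = 3.23e-05), and the difference was -2.61 ± 0.20 (adjusted p = 3.25e-05). Of all genes tested, 1.57% were called in both lines with opposite signs. Over both lines the effects cancelled to 0.02 ± 0.53 (adjusted p = 0.986), which became 1.54 (adjusted p = 2.22e-05) without primed RH6 and -1.05 (adjusted p = 9.62e-05) without primed RH5.

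The balance between the ZEB paralogues nevertheless moved the same way in both lines. Counts of ZEB2 per count of ZEB1 were 11.2 in primed RH6 and 13.4 in primed RH5. They were 1.08 and 1.11 in naive RH6, and 1.46 and 1.66 in naive RH5. The log2 ratio was lower in naive cells by 3.35 in RH6 and 3.11 in RH5, as the differences -3.35 and -3.11 of naive minus primed.

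**Figure D3:**
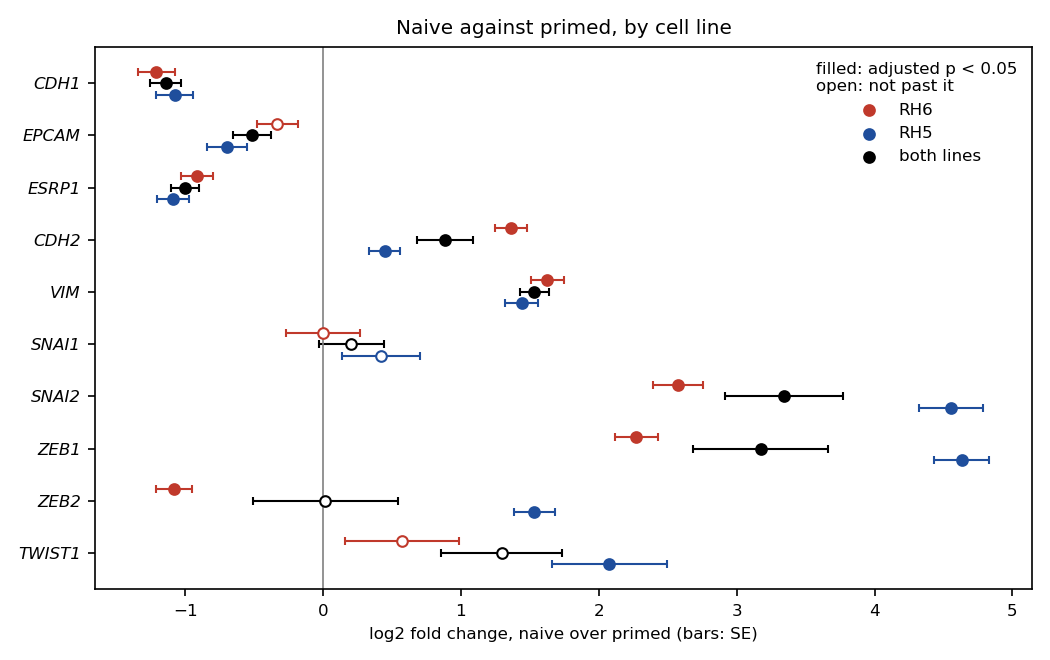
Log2 fold change of naive over primed cells (horizontal axis) for each switch gene in RH6 (red), RH5 (blue) and both lines (black), with bars of 1 SE; filled points passed an adjusted p of 0.05. CDH1, ESRP1 and VIM have nearly the same effect in both lines, SNAI2 and ZEB1 rise more in RH5, CDH2 rises more in RH6, and ZEB2 lies at -1.08 in RH6 and 1.53 in RH5.

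Both ZEB mRNAs are textbook targets of the miR-200 family of microRNAs, which keep epithelial cells epithelial, and the mature sequences are shown because the family splits by its seed (bases 2 to 8, in capitals). The sequences are from RefSeq (GRCh38.p14), with the loci at chr1:1167160-1167181 for miR-200b-3p, chr12:6963742-6963764 for miR-200c-3p, chr1:1169055-1169076 for miR-429, chr1:1167916-1167937 for miR-200a-3p and chr12:6964155-6964176 for miR-141-3p, all on the plus strand.
hsa-miR-200b-3p: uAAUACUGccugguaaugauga
hsa-miR-200c-3p: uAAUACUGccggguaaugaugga
hsa-miR-429: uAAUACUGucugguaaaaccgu
hsa-miR-200a-3p: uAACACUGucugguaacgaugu
hsa-miR-141-3p: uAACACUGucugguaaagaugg
The first 3 share the seed AAUACUG and the last 2 share AACACUG, which differ in 1 base. The complements CAGTATT and CAGTGTT were counted on the sense strand of the 3′ UTR of each gene's longest coding transcript in GENCODE 29. The ZEB1 3′ UTR of 2552 bases held 6 and 3 matches, and the ZEB2 3′ UTR of 5373 bases held 5 and 4. Of 19535 genes with a 3′ UTR, 0.0307% held 9 or more matches, over UTRs of all lengths. ESRP1 held 2, SNAI2 held 1, and CDH1, CDH2, EPCAM, VIM, SNAI1 and TWIST1 held 0.

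One match of each kind is shown for each ZEB gene, with the complement of the seed in capitals.
ZEB1, base 372 of the 3′ UTR: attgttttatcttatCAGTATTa
ZEB1, base 1536 of the 3′ UTR: tgagatttgatttaaCAGTGTTa
ZEB2, base 816 of the 3′ UTR: ttgaagcacccatgtCAGTATTa
ZEB2, base 211 of the 3′ UTR: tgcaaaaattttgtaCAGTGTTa
These matches describe the sequence only. The libraries were made from RNA above the size of microRNAs, and the rows for MIR200A, MIR200B and MIR141 were at 0 in all 6 libraries, with 2 counts in all for MIR200C and 4 for MIR429. ZEB1 held 3.53 matches per kilobase of 3′ UTR and ZEB2 held 1.68. The part of these matches in the level of either gene was not tested.

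The E-box read by the SNAI and ZEB factors was searched as CAGGTG, with its reverse complement CACCTG, on both strands of the 250 bases before each start in the RefSeq promoter table (GRCh38.p14). Of 35116 promoters, 17.5% held it, and 61.8% held the wider CANNTG that contains it. The table had entries for 4 of the 10 genes (CDH2, VIM, ZEB1 and ZEB2), with 11 starts. Matches to CAGGTG or CACCTG lay before 2 of the ZEB1 starts and none of the others. The ZEB1 start with the match nearest to it is shown, with the E-box in capitals 57 bases before the start, at chr10:31318167-31318416 on the plus strand.
ZEB1 promoter: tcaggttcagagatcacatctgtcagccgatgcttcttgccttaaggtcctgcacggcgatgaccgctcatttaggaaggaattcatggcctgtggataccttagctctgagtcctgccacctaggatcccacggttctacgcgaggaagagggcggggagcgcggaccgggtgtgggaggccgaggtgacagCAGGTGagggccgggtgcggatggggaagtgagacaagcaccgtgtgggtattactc

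SNAI1 (ENSG00000124216), the snail factor that acts early in gastrulation, was low in every library. It had 78 and 101 counts in naive RH6, 122 and 87 in naive RH5, 96 in primed RH6 and 78 in primed RH5, or 5.47 to 8.63 CPM in naive and 5.65 to 6.44 CPM in primed libraries. The groups overlapped, and the change, 0.21 ± 0.24, did not pass (adjusted p = 0.574). A pseudogene row, SNAI1P1, held 0 to 6 counts a library.

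TWIST1 (ENSG00000122691), a basic helix-loop-helix factor of mesoderm and neural crest, had 39 and 61 counts in naive RH6, 93 and 134 in naive RH5, 36 in primed RH6 and 27 in primed RH5. Naive RH5 was the highest group and naive RH6 replicate 1 lay close to primed RH6. Over both lines it stood at 1.29 ± 0.44, which did not pass (adjusted p = 0.0695). TWIST1 rose in RH5 by 2.08 ± 0.42 (adjusted p = 0.00348) and stood at 0.57 ± 0.41 in RH6 (adjusted p = 0.324), and the difference was -1.50 ± 0.60 (adjusted p = 0.14). That difference was called without naive RH6 replicate 2 (-1.90, adjusted p = 0.0306), without naive RH5 replicate 1 (-1.79, adjusted p = 0.0177) and when low counts were not filtered (-1.49, adjusted p = 0.0337). The naive over primed effect over both lines was 2.08 without primed RH6 and 0.60 without primed RH5, each being the effect of the remaining line.

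Some reads of these genes cannot be assigned with certainty, since the strand setting of the counting is not given in the sources used here. TWIST1 overlaps AC003986.2 on the opposite strand, which had 7 and 4 counts in naive RH6, 18 and 12 in naive RH5, 0 in primed RH6 and 6 in primed RH5. ZEB1-AS1, opposite ZEB1, had 16 to 45 counts in naive libraries, 16 in primed RH6 and 13 in primed RH5, beside the 127 and 27 counts of ZEB1 in the primed libraries. AC110015.1, opposite CDH2, had 60 and 65 counts in naive RH6 and 7 to 23 in the other libraries. ZEB2-AS1 had 5 to 14 counts and VIM-AS1 4 to 16 over the 6 libraries.

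Within each line, the state effects rest on 1 primed library, whose spread was taken from the naive duplicates. By this fit 7 of the 10 genes were called in RH6, 4 higher and 3 lower, and 9 in RH5, 6 higher and 3 lower. Of all genes tested, 33.6% were called in RH6 (16.4% higher and 17.2% lower) and 33.5% in RH5 (16.5% higher and 17% lower). The difference between the lines was called for 4 of the 10 genes (CDH2, SNAI2, ZEB1 and ZEB2), 1 higher and 3 lower, against 12% of all genes tested (5.86% higher and 6.16% lower). Naive RH6 and naive RH5 differed in 4 of the 10, against 25.5% of all genes tested. CDH2 and VIM were higher in naive RH6, and ZEB2, at -0.75 ± 0.11, and TWIST1, at -1.20 ± 0.29, were lower.

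Markers of other cells differed between the primed libraries too. Of 4 forebrain and eye-field genes of the neural list chosen after their values were seen, PAX6 stood at 36.8 CPM in primed RH6 and 12.1 CPM in primed RH5, SIX3 at 43.9 and 12.5, RAX at 9.93 and 1.67, and SOX1 at 4.90 and 0.579. In naive libraries PAX6 was at 1.26 to 1.62 CPM, SIX3 at 0 to 0.561, RAX at 0 to 0.0736 and SOX1 at 0 to 0.896. Elsewhere on that list, DCX went the other way, at 12.1 CPM in primed RH6, 14.4 in primed RH5 and 4.77 to 17.3 in naive libraries. OTX2 stood at 284, 195 and 34.5 to 138 CPM in the same order, and LHX2 at 7.92, 0.942 and 0.354 to 0.883 CPM. NEUROG2 and FEZF2 did not pass the filter on low counts. Of the 8 neural markers tested, 0 rose and 5 fell in naive cells over both lines, with a median log2 fold change of -2.75. Of all genes tested, 12.1% rose and 13.6% fell. The neural list summed to 937 CPM in primed RH6, 702 CPM in primed RH5 and 708 to 1120 CPM in naive libraries, of which NES, an intermediate filament gene of progenitors, made up 535, 466 and 562 to 1070 CPM. The endoderm list summed to 51.4 CPM in primed RH6, 306 CPM in primed RH5 and 117 to 157 CPM in naive libraries, with CER1, a secreted antagonist of nodal and BMP, at 26.2, 216 and 62.0 to 122 CPM.

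Of the 8 neural crest markers, 5 were higher in primed RH6 than in primed RH5, a near-even split with 1 library each. SOX10 stood at 10.2 and 3.55 CPM in these libraries, PAX3 at 18.8 and 4.49, TFAP2B at 11.8 and 3.62, NGFR at 24.7 and 11.2, and PAX7 at 12.6 and 7.10. The other 3 markers were higher in primed RH5, with ERBB3 at 64.4 and 87.2 CPM, FOXD3 at 15 and 22.9 and ETS1 at 35.4 and 38.6. SNAI2, ZEB1 and ZEB2 were higher in primed RH6, and the share of all genes higher there was not counted. The list's sum was 193 and 179 CPM in primed RH6 and RH5 and 149 to 159 CPM in naive libraries, where ETS1 alone made up 60.1 to 116 CPM. The part of these cells in the primed levels of SNAI2, ZEB1 and ZEB2 was not tested.

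Levels were compared between genes only per length, as CPM per kilobase of the longest coding transcript in GENCODE 29, which is not the annotation of the counts. In naive libraries the mean order was VIM (156), EPCAM (93.2), CDH2 (75.8), CDH1 (41.0), ESRP1 (28.3), SNAI2 (21.5), ZEB1 (7.17), ZEB2 (6.31), SNAI1 (4.16) and TWIST1 (3.57). In primed libraries it was EPCAM (133), CDH1 (90.3), ESRP1 (56.8), VIM (52.9), CDH2 (38), ZEB2 (6.34), SNAI1 (3.59), SNAI2 (2.28), TWIST1 (1.31) and ZEB1 (0.836). VIM was thus the first of the 10 in naive and the fourth in primed libraries, and SNAI2 stood first among the transcription factors in naive libraries and behind ZEB2 and SNAI1 in primed ones. Among naive libraries the neighbours EPCAM and CDH2, ZEB1 and ZEB2, ZEB2 and SNAI1, and SNAI1 and TWIST1 had overlapping ranges. In the primed libraries ESRP1 and VIM overlapped, as did ZEB2 and SNAI1, SNAI1 and SNAI2, SNAI2 and TWIST1, and TWIST1 and ZEB1.

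Other genes of the programme were grouped in lists by role, and each list's counts stand beside the 12.1% of all genes tested that rose and the 13.6% that fell over both lines. The epithelial side did not fall as a whole. Of 26 tested genes of epithelial junctions and polarity, 9 fell, 3 rose and 14 were not called, with a median log2 fold change of -0.16 against -0.01 over all genes. The tight junction genes CLDN3, at -4.06 ± 0.47, and MARVELD3, at -2.98 ± 0.24, fell most, while the desmosome genes DSP, at 1.17 ± 0.12, and PKP2, at 1.15 ± 0.33, rose. CLDN3 was at 8.86 and 8.40 CPM in primed RH6 and RH5 and at 0.0736 to 0.778 CPM in naive libraries. DSP, the desmosomal plaque protein desmoplakin, stood at 968 to 1230 CPM in naive and 458 and 527 CPM in primed libraries.

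Of 20 epithelial regulators and surface genes, 7 fell, 3 rose and 10 were not called, with a median of -0.64. AP1M2, an adaptor of sorting to the basolateral membrane, had -3.14 ± 0.33. GRHL2, a grainyhead factor that sustains CDH1 and opposes ZEB1, had -2.82 ± 0.23 (adjusted p = 0.000401), and stood at 4.98 and 4.78 CPM in naive RH6, 12.8 and 9.78 CPM in naive RH5, and 48.2 and 56.7 CPM in primed RH6 and RH5. The keratins of simple epithelia KRT8, at 1.85 ± 0.23, and KRT18, at 1.76 ± 0.20, rose. ESRP2, the paralogue of ESRP1, had -0.34 and was not called (adjusted p = 0.151).

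Mesenchymal effectors mostly rose. Of 28 tested, 18 rose, 2 fell and 8 were not called, with a median of 1.02. The median was 1.14 for RH6 and 0.88 for RH5. The gelatinase gene MMP2 had 3.16 ± 0.16 and the smooth muscle actin gene ACTA2 3.16 ± 0.31, while the ectonucleotidase gene NT5E, at -2.83 ± 0.37, and the receptor kinase gene AXL, at -0.65 ± 0.17, fell. FN1, the fibronectin gene, chosen here after its values were seen, had 0.89 ± 0.57 over both lines and was not called (adjusted p = 0.302). It rose by 2.46 ± 0.15 in RH6 (adjusted p = 1.18e-06) and stood at -0.24 ± 0.13 in RH5 (adjusted p = 0.173), a difference of 2.70 ± 0.19 (adjusted p = 2.25e-05).

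Beside these, 8 of 16 tested fibroblast markers rose and 1 fell, and their sum was 900 to 1720 CPM in naive and 511 to 573 CPM in primed libraries. The collagen genes COL3A1, at 4.33 ± 0.24, and COL5A1, at 2.90 ± 0.18, rose most, and THY1, a surface glycoprotein gene, fell by 1.37. COL3A1 was at 81.1 to 160.0 CPM in naive libraries and at 5.57 and 5.29 CPM in primed RH6 and RH5. Chosen after their values were seen, the fibroblast gene DCN had 0 to 8 counts and FAP 0 to 7 counts a library, and LUM was at 10.1 to 20.9 CPM in naive and 0.869 to 3.69 CPM in primed libraries. Of 11 tested primitive streak and mesoderm markers, 5 rose and 0 fell, and the sum was 413 to 717 CPM in naive and 95.5 to 282 CPM in primed libraries. HAND1, a factor of mesoderm and trophoblast, had 6.67 ± 0.23 and stood at 63.3 to 88.4 CPM in naive libraries and 1.01 and 0.435 CPM in primed RH6 and RH5. APLNR, the apelin receptor gene, had 6.15 ± 0.34 and stood at 46.2 to 87.9 CPM in naive libraries and 0.671 and 1.09 CPM in primed RH6 and RH5. None of either list was at 0 in all 6 libraries. Their part in the rise of VIM, CDH2, SNAI2, ZEB1 and the effectors was not tested. Both states grew on MEF, and the share of reads from these mouse cells was not tested either.

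Of 22 other transcription factors of the programme, 4 rose, 5 fell and 13 were not called, with a median of -0.16 against -0.01 over all genes. Over all genes tested, 12.1% rose and 13.6% fell. FOXC1, a forkhead factor of mesoderm, rose by 4.11 ± 0.19 (adjusted p = 6.63e-05), from 2.21 and 1.81 CPM in primed RH6 and RH5 to 32.9 to 39.2 CPM in naive libraries. Its relative FOXC2 had 2.22 ± 0.52, on 3 to 27 counts a library. SNAI3, another snail gene, had -2.63 ± 0.36, with 4 or 5 counts in each naive library against 31 and 25 in primed RH6 and RH5, and the paired-box-like homeobox gene PRRX2 had -2.01 ± 0.34. The snail family thus held 1 gene that rose, 1 that fell and 1 not called. Of 9 splicing regulators that act on the same exons as the ESRP proteins, 1 rose (MBNL2, at 0.70 ± 0.21), 0 fell and 8 were not called, with a median of -0.01.

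**Figure D4:**
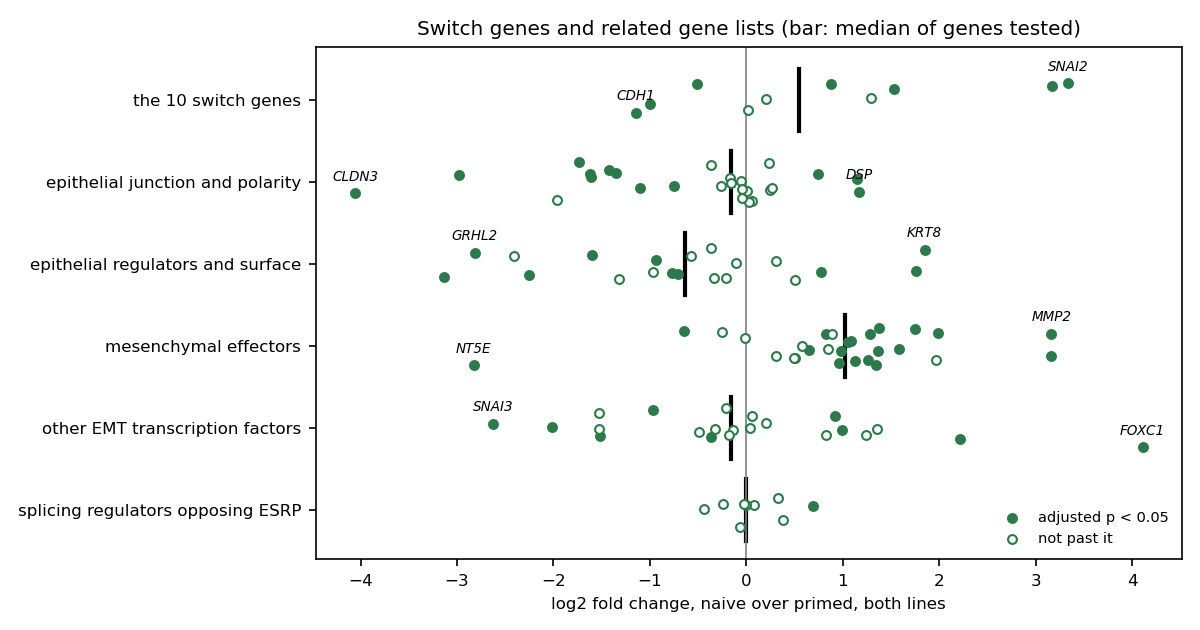
Log2 fold change of naive over primed cells over both lines (horizontal axis) for the switch genes and 5 lists of related genes; points are genes tested, filled where the adjusted p was under 0.05, spread vertically only for legibility, and black bars are medians. Mesenchymal effectors lie mostly above 0 with a median of 1.02, while the epithelial lists hold genes on both sides, with CLDN3 and GRHL2 low and DSP and KRT8 high.

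The genes with profiles most like those of 4 switch genes were found by the root-mean-square difference of centred log2 CPM over the 6 libraries, among 7524 genes at a mean of 20 CPM or more. For CDH1 they were SEZ6L2 (0.07), PCDH1 (0.07) and FAM212B (0.08), and for ESRP1 they included MTMR12 (0.06) and PCDH1 (0.09). PCDH1, a protocadherin of epithelia, was near both CDH1 and ESRP1. For CDH2 they were B4GALT6 (0.07), COL4A1 (0.07) and TLN2 (0.08), with 312 and 306 CPM of the basement membrane collagen COL4A1 in naive RH6 and 156 and 161 CPM in naive RH5. For VIM they were STOX2 (0.07), CTD-3099C6.9 (0.16) and CDH11 (0.19), a cadherin of mesenchyme. All 6 points share their libraries and scaling factors, and such nearness is a description.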

How the data were processed

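The file deposited by the authors holds raw counts of reads, as whole numbers, for each gene and library. Tools named in the submitters' processing notes are STAR 2.4.0a, featureCounts 1.4.5-p1, FastQC, Subread and DESeq2, and the builds there are GRCh37.p5 and hg19. Their roles are not stated. Per the labels' protocols, RNA above microRNA size was used with a stranded total RNA kit, while the molecule field says polyA. Which annotation was counted, and with which strand setting, is not given in the sources used here.

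Counts were tested with edgeR 4.0.16 (R 4.3.3), quasi-likelihood F-test, TMM factors and filterByExpr by state (minimum count 10, minimum total 15). State over both lines had the line as covariate (3 residual degrees of freedom). Line-wise effects, their difference and naive RH6 against naive RH5 were contrasts of 4 group means (2 residual degrees of freedom). P-values were two-sided, Benjamini-Hochberg adjusted over 19434 genes. SE is the log2 fold change divided by the square root of F. The script was tested on simulated data. Of 100 genes with a true log2 fold change of 1, 52% were recovered over both lines and 56% in RH6. With a true value of 2, 90% and 80% were recovered. Of the genes called, 5.96% over both lines and 7.48% in RH6 had not been changed. Only these genes among 19434 were changed, by the same fold in both lines, and the simulated libraries were independent. In the data 25.7% of genes were called over both lines and duplicates may be technical, so these rates hold for the simulation only. The duplicates differed by 9.22 and 5.76 in chi-square per gene, where counting noise gives about 1, and were kept separate. Alternatives were DESeq2 1.42.0, limma-voom (limma 3.58.1), RLE and upper-quartile factors, no low-count filter, left-out libraries, no line term, summed naive libraries and a replicate block.

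The members and lists were chosen with earlier results of these data known. Named genes were all 10 members, and, from the lists of related genes and those for fibroblasts and mesoderm, up to 2 called genes with the largest rise and 2 with the largest fall; other genes were named after their values were seen. The 7 list symbols that stood on several rows (OCLN, CLDN3, CLDN4, JUP, MARVELD2, ITGB3 and POU5F1) were taken on the row whose ID carries that name in the primary assembly of GENCODE 29; their other rows held 0 counts. The promoter and protein letters planned for CDH1, the cadherins and the SNAI factors are not shown; the miR-200 and ZEB sequences were chosen in their place after values were seen. Of the lists, those for pluripotent cells (0 rose, 5 fell), trophectoderm (5 rose, 1 fell), neural cells (0 and 5), neural crest (1 and 3) and endoderm (0 and 2) stood for the cells themselves or others that the cultures could hold. These counts stand beside the 12.1% of all genes tested that rose and the 13.6% that fell. One gene that the rule on profiles would name is not reported here.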

Additional observations from a re-analysis of the deposited data

Results flagged for a closer look

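In 4 of the 10 genes the effect of the state differed between the lines by the test of the difference itself, against 12% of all genes tested. Passage differed between the lines too and cannot be told apart from the line here. The effect in RH6 minus that in RH5 was 0.92 for CDH2, -1.98 for SNAI2, -2.36 for ZEB1 and -2.61 for ZEB2 on the log2 scale. Each kept its direction and its call in DESeq2 and limma-voom, in edgeR without the low-count filter or with RLE or upper-quartile factors, and when any 1 naive library was left out. Without a primed library the difference cannot be computed, so each value rests on both lone primed libraries. For SNAI2 and ZEB1 the naive libraries of both lines stood close together and the primed libraries apart, for CDH2 the primed libraries stood close together and the naive ones apart, and for ZEB2 both did not.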

How the results depend on the processing

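CDH1, ESRP1, VIM, SNAI2 and ZEB1 kept their direction and call in naive against primed over both lines under every alternative run. Of the other alternatives for the 10 genes in that comparison, the calls of CDH2 and EPCAM were also lost when naive duplicates were added together, at folds of 0.92 and -0.50 (adjusted p = 0.115 and 0.193), and that of CDH2 with no line term, at 0.99 (0.0952). TWIST1 was called with DESeq2 (0.0301) and with no low-count filter (0.00937). EPCAM in RH6 was called with upper-quartile factors (-0.43), which moved the median of all genes in RH6 to -0.11, and without naive RH5 replicate 2 (-0.34). CDH2 in RH5 was not called without naive RH5 replicate 1 (adjusted p = 0.0532), and TWIST1 was not called between the naive cultures with DESeq2 (0.0507).

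Signs turned where estimates were near 0. ZEB2 over both lines was -0.069 with upper-quartile factors, -0.008 with no line term, -0.05 and -0.12 without naive RH5 replicates 1 and 2, and ranged from -1.05 (primed RH5 left out) to 1.54 (primed RH6 left out). SNAI1 in RH6 turned from just under 0 to 0.01 with DESeq2 (0.013) and RLE factors (0.012), 0.02 with no low-count filter (0.023), 0.20 with naive RH6 replicate 1 left out and 0.03 with primed RH5 left out (0.029). Between the naive cultures, SNAI2 was -0.07 without naive RH6 replicate 1 and -0.08 without naive RH5 replicate 2, in a range up to 0.16, and ESRP1, at -0.1 without naive RH5 replicate 2, turned to 0.008 with no low-count filter, 0.069 without naive RH6 replicate 2, 0.033 without naive RH5 replicate 1, 0.006 without primed RH6, 0.005 without primed RH5 and 0.001 with the 4 naive libraries alone.

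The count of genes called over both lines, 4996, was 1127 with the naive libraries summed and 2961 to 6704 with 1 library left out. DESeq2 called 4036 genes in RH6, 3936 in RH5, 1305 for the difference between the lines and 2856 between the naive cultures, against 6528, 6506, 2337 and 4952 with edgeR. The cause was not tested.

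The labels number the duplicates of both naive groups but say nothing of a shared batch, and the deviations of same-numbered libraries correlated at 0.14 across genes. With a replicate block on the 4 naive libraries, 7404 genes differed between naive RH6 and naive RH5, against 5034 without it. ESRP1 was then at 0.001, and EPCAM (0.22) and ZEB1 (-0.23) were called. TWIST1, SNAI1 and the primed values of ZEB1 and SNAI2 rest on few counts, which limits their precision.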

Other observations

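MIR205HG, the host transcript of miR-205, another microRNA known to act on the ZEB mRNAs, was looked up after the values of the ZEB genes were seen. It had 126 and 124 counts in naive RH6, 729 and 693 in naive RH5, 31 in primed RH6 and 97 in primed RH5. It was higher in naive than in primed libraries of the same line and higher in RH5 than in RH6 in both states. The host transcript does not measure the mature microRNA, and it was not tested.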
